A study of Drosophila melanogaster with 24 samples.

Results

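The 86 genes for proteins of the cytosolic ribosome were followed through RNA-seq counts of thoraces and heads of adult male Drosophila melanogaster. They are the genes whose symbol begins with RpL or RpS followed by a digit, or with RpLP, and whose mean level reached 1 CPM (counts-per-million, reads of a gene scaled to the library total) in at least 1 group. Of 15682 genes in the count tables, 92 had such a symbol. The members comprised 51 RpL genes, the RpLP stalk genes included, and 35 RpS genes. Just inside the threshold lay RpS5b, with a highest group mean of 1.56 CPM, and RpS10a, with 4.98 CPM. RpS10a reached 1 CPM in Ter94 RNAi thoraces alone, and RpS5b in Ter94 RNAi thoraces and both head groups, so their higher levels there are part of the choice of members and are given without a test. Just outside lay RpL22-like, with 0.878 CPM. RpL10Aa, RpL37b, RpS19b, RpS28-like and RpS28a were the other symbols below it, and no library held more than 52 reads of any of the 6.

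The cytosolic ribosome is built of a small subunit, which reads the messenger RNA, and a large subunit, which joins the amino acids. RpL proteins sit in the large subunit and RpS proteins in the small subunit, while RpLP0, RpLP1 and RpLP2 form the stalk that recruits translation factors. Every cell makes these proteins in matched amounts, and in Drosophila loss of a single copy of many of these genes slows growth and shortens the bristles, the Minute phenotype. Several proteins are encoded by a pair of paralogues, of which 1 is widely used and the other is often low or typical of the germline.

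The 24 libraries fall into 8 groups of 3, all from 10-day-old males. The 6 thorax groups carried the muscle driver Mhc-Gal4, named Mhc in the labels, with an RNAi transgene. The control RNAi groups were Mhc>GFPRNAi, against a protein that flies lack, and Mhc>whiteRNAi, against an eye pigment transporter. The other thorax groups were Mhc>ProsB1RNAi and Mhc>ProsB5RNAi, against catalytic subunits of the proteasome, Mhc>Ter94RNAi, against the p97 ATPase that pulls ubiquitinated proteins out of complexes, and Mhc>CG6272RNAi, against a bZIP transcription factor that pairs with Xrp1. The head groups were Mhc>+, an isogenic control, and Mhc>Amyrel, in which the same muscle driver overexpresses an amylase-related secreted enzyme. All thorax groups therefore share the driver and an active RNAi transgene, and each target is represented by 1 genotype. The driver acts in muscle, whereas whole thoraces, and heads enriched in brain and retina, also hold other cells. For bulk RNA of this kind, fewer cells of a type and less RNA per cell cannot be told apart.

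Reads assigned to genes numbered 28870166 to 79158181 per library. The targets of the transgenes moved as labelled. Against the 6 control RNAi libraries, Prosbeta1 fell by 0.93 on the log2 scale in ProsB1 RNAi, Prosbeta5 fell by 1.05 in ProsB5 RNAi, TER94 fell by 0.61 in Ter94 RNAi and CG6272 fell by 0.93 in CG6272 RNAi, and Amyrel rose by 6.19 in heads of its overexpressing flies. Thoraces held 3636 to 5931 CPM of Mhc, the muscle myosin heavy chain, and heads held 32545 to 35516 CPM of ninaE, the main rhodopsin. Several thorax libraries stood apart by reads of other tissues. ninaE reached 185 CPM in GFP RNAi replicate 2, 348 CPM in GFP RNAi replicate 3 and 393 CPM in white RNAi replicate 1, against 0.216 to 29.6 CPM in the other 15. The summed level of accessory gland genes reached 28.7 to 352 CPM in GFP RNAi replicate 1, white RNAi replicates 1 and 2 and ProsB5 RNAi replicate 1, against 0.171 to 3.30 CPM in the other 14. Counts of called members that rest on these libraries are given with and without them, while most single genes are given with them only.

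The members together took between 4.76% and 8.78% of the reads of a library. In GFP RNAi thoraces they held 5.47%, 5.51% and 4.76% of the reads in genes, and in white RNAi thoraces 5.93%, 5.80% and 5.73%. ProsB1 RNAi thoraces held 5.92%, 5.79% and 5.53%, and ProsB5 RNAi thoraces held 6.31%, 5.97% and 6.16%. The shares in Ter94 RNAi were 6.72%, 5.9999% and 6.07%. All 3 Ter94 shares and all 3 ProsB5 shares thus lay above the control range, while those of ProsB1 lay within it. With TMM scaling both groups overlapped the control range of 5.06% to 6.21%, since ProsB5 RNAi had 5.97% to 6.36%, with a mean of 6.17%, and Ter94 RNAi 5.30% to 6.02%, with a mean of 5.56%. CG6272 RNAi had the highest group mean, with shares of 6.51%, 8.78% and 7.20%, a mean of 7.497% ± 1.16 (SD, n = 3). Its replicate 2 was the highest of the 24 libraries, and the spread of this group exceeded that of every other group. Control heads held 5.28%, 5.37% and 5.37%, and Amyrel heads held 5.59%, 5.15% and 5.47%, so the head groups overlapped. The widest exact 95% binomial interval of any share spanned 0.0188 percentage points, which covers counting error only. A share is relative to all other reads of the library, and no test was run on it.

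**Figure D1:**
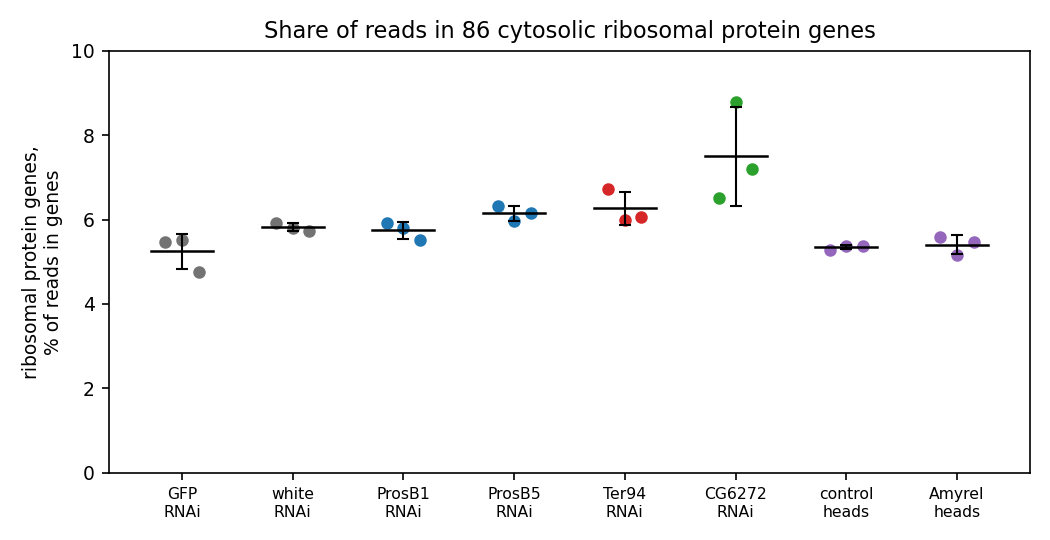
Percent of the reads in genes that fell on the 86 cytosolic ribosomal protein genes, by library (points) and group (bars, mean with SD, n = 3). The highest point is CG6272 RNAi replicate 2 at 8.78%, and the lowest is GFP RNAi replicate 3 at 4.76%.

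The level of each gene was next compared per kilobase of transcript, the only scale used here to set one gene against another. Lengths were found for 85 of the 86 members, all except RpL37a. In the 6 control thoraces the median level was 960 CPM per kb, with quartiles of 798 and 1246 CPM per kb. RpL41, the shortest ribosomal protein, had the highest level at 2607 ± 171 CPM per kb (SD, n = 6). RpL5, which binds the 5S ribosomal RNA, followed at 1988 ± 146, then RpL39 at 1929 ± 153, RpS3A at 1855 ± 117 and the stalk protein RpLP1 at 1702 ± 131 CPM per kb. RpL5, RpL39 and RpS3A differed by less than 1 SD from their neighbour in this order. All but 8 of the genes lay between 369 and 2607 CPM per kb, a range of 7.07-fold.

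The 8 genes below 300 CPM per kb were mostly paralogues or relatives of a more abundant member. RpL24-like had 245 CPM per kb, RpL7-like 35.2 and RpLP0-like 20.6, and these 3 are related to yeast factors of ribosome assembly rather than to mature subunit proteins. RpL22 had 190 CPM per kb, RpL34a 160 and RpS15Ab 81.5. RpS5b, at 1.03 CPM per kb, and RpS10a, at 0.345 CPM per kb, are copies known from the germline of Drosophila. Control heads had a similar profile, with a median of 902 CPM per kb, 9 genes below 300 and RpL41 again the highest at 2149 CPM per kb.

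**Figure D2:**
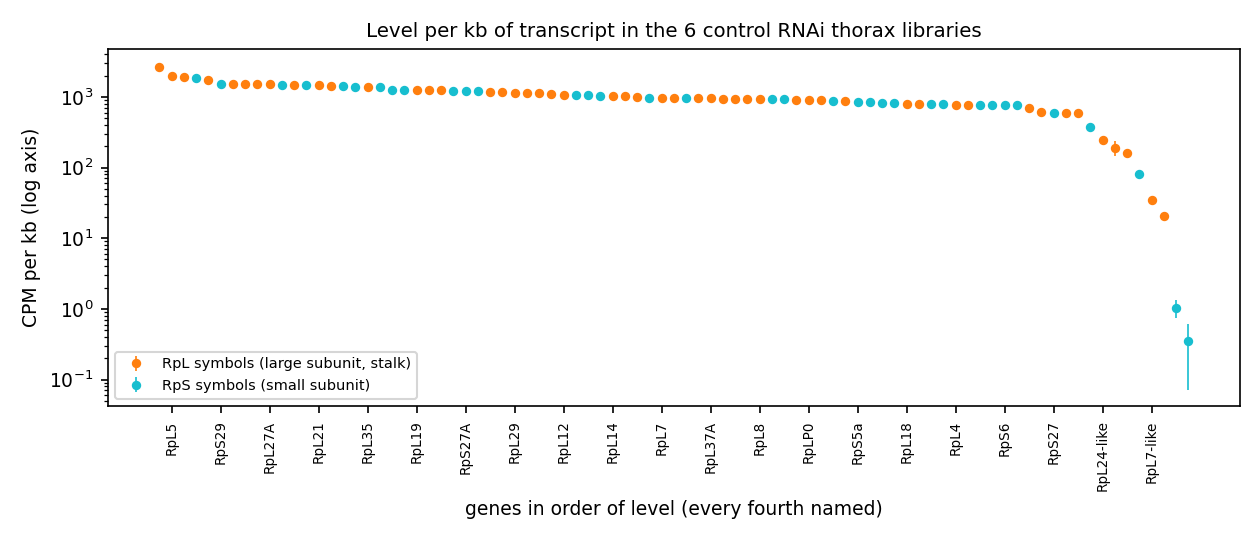
Level of 85 cytosolic ribosomal protein genes in the 6 control RNAi thoraces (CPM per kb of transcript, log axis), ranked, with RpL and RpS symbols coloured apart. Most genes lie on a plateau near the median of 960 CPM per kb, and a tail of 8 genes falls below 300.

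Changes between groups were tested with the quasi-likelihood test of edgeR over all genes, and a gene was called at an adjusted p (Benjamini-Hochberg) under 0.05. In CG6272 RNAi thoraces most ribosomal protein genes were higher than in the control RNAi libraries. Of 85 members tested, 62 rose and 0 fell, against 14.5% and 8.80% of all genes tested. Members have short coding sequences, of at most 1248 bases. Of the 1114 other genes under 500 bases, 24.3% were called higher and 4.49% lower. The median member was 0.41 higher on the log2 scale, against 0.03 for all genes. The rise covered both subunits, with 38 of 51 RpL genes and 24 of 34 RpS genes called, and the called changes ran from 0.27 for RpLP0-like to 0.90 for RpL22. For 63 members every CG6272 library lay above all 6 controls, against 14.9% of all genes. The CG6272 libraries differed from the controls in depth. Replicates 1, 2 and 3 held 69019226, 34756003 and 79158181 reads in genes, and the 6 controls held 30965721 to 32882540. The part of this difference in the result was not tested.

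RpL22, a large subunit protein, measured 368, 446 and 342 CPM in the CG6272 RNAi thoraces and 146 to 258 CPM in the controls, with a control median of 229 CPM. The groups did not overlap, and RpL22 rose by 0.90 on the log2 scale (SE 0.149, adjusted p = 0.00489, edgeR). RpL35A, also of the large subunit, measured 549.9, 725 and 588 CPM against 304 to 409 CPM in the controls, whose median was 376 CPM. All 3 libraries lay above the highest control, and the log2 difference was 0.76 (SE 0.0994, adjusted p = 0.00169), the lowest adjusted p of the members. RpS26, of the small subunit, measured 1039, 1499 and 1119 CPM against 613 to 862 CPM, and its log2 difference was 0.68 (SE 0.117, adjusted p = 0.0058). In these 3 genes replicate 2 was the highest of the CG6272 libraries.

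Of the stalk proteins, RpLP1 rose by 0.60 (adjusted p = 0.0082, edgeR), from 887 to 1088 CPM in the controls to 1310.0, 1866 and 1454 CPM. RpLP2 rose by 0.55 (adjusted p = 0.0197), whereas RpLP0 was 0.29 higher and not called (adjusted p = 0.0879). The stalk base RpLP0 measured 1150.4, 1621 and 1240.2 CPM, and its lowest library lay within the control range of 978 to 1158 CPM. The ubiquitin fusions, from which ubiquitin is cut free, were divided in the same way. RpL40 rose by 0.38 (adjusted p = 0.031), and RpS27A was 0.30 higher without passing the test (adjusted p = 0.0757). RpS6, the target of S6 kinase, rose by 0.47 (adjusted p = 0.0192), from 660.0 to 790.0 CPM in the controls to 850.0, 1233 and 954 CPM. RpS3, at the entry channel for messenger RNA, rose by 0.45 (adjusted p = 0.0253). RpS12, which acts with Xrp1 when ribosomal proteins are short in Drosophila cells, rose by 0.49 (adjusted p = 0.0227). Its levels were 550.1, 811 and 624 CPM, and its control range was 382 to 547 CPM. RpL5 and RpL11, which bind the 5S ribosomal RNA, rose by 0.33 (adjusted p = 0.0292) and 0.41 (adjusted p = 0.0204).

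Among the 23 members not called, only RpS5b had a negative value, at -0.26 (adjusted p = 0.489). RpL24-like, at 0.01 (adjusted p = 0.952), and RpS15Ab, at 0.06 (adjusted p = 0.769), had the smallest differences. RpL38, RpL39 and RpL41, 3 small proteins of the large subunit, were 0.20, 0.18 and 0.18 higher and did not pass the test. RpS10a was not tested here, and it measured 0, 0.0602 and 0.0257 CPM in CG6272 RNAi. The library at 0 reads allows a level of up to 0.0435 CPM, from 3 counts.

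The count of members called in CG6272 RNAi depended strongly on the control libraries, and the median moved less. Against white RNAi alone 11 members were called higher, with a median of 0.34, and against GFP RNAi alone 60, with a median of 0.49. Without the control libraries high in ninaE 1 member was called higher, and without those high in accessory gland genes 0, while the medians were 0.39 and 0.45. With all controls these were 62 and 0.41. The smaller fits hold fewer controls, so their lower counts cannot be laid to the libraries left out alone. Leaving out single controls gave 22 called higher without white RNAi replicate 3, 27 without white RNAi replicate 2, 40 without GFP RNAi replicate 1 and 38 without any of the other 3. Among the CG6272 libraries, leaving out replicate 2 gave 50 called higher and a median of 0.27, and leaving out replicate 1 gave 71 and a median of 0.52. The members' median difference from the controls was 0.19, 0.68 and 0.33 in the 3 CG6272 libraries. Cell type markers moved as well. Of the haemocyte genes 3 of 5 were lower, summing to 308 to 363 CPM against 388 to 480 CPM in the controls. Of the gut genes 3 of 9 were higher, with sums of 3251 to 7835 CPM against 6036 to 7084 CPM, and of the fat body genes 3 of 6, with 8215 to 10971 CPM against 7397 to 9338 CPM. Photoreceptor genes had 0 of 14 called, with sums of 84.3 to 151 CPM against 123 to 1084 CPM. Muscle genes had 0 of 10 called. Their sums were 21079, 17649 and 19295 CPM in replicates 1, 2 and 3, all below the control range of 21099 to 28361 CPM. Neuron genes summed to 322 CPM in replicate 2, where the ribosomal protein share was highest, to 794 and 856 CPM in the other CG6272 libraries and to 634 to 827 CPM in the controls. The part of these cells in the result was not tested.

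**Figure D3:**
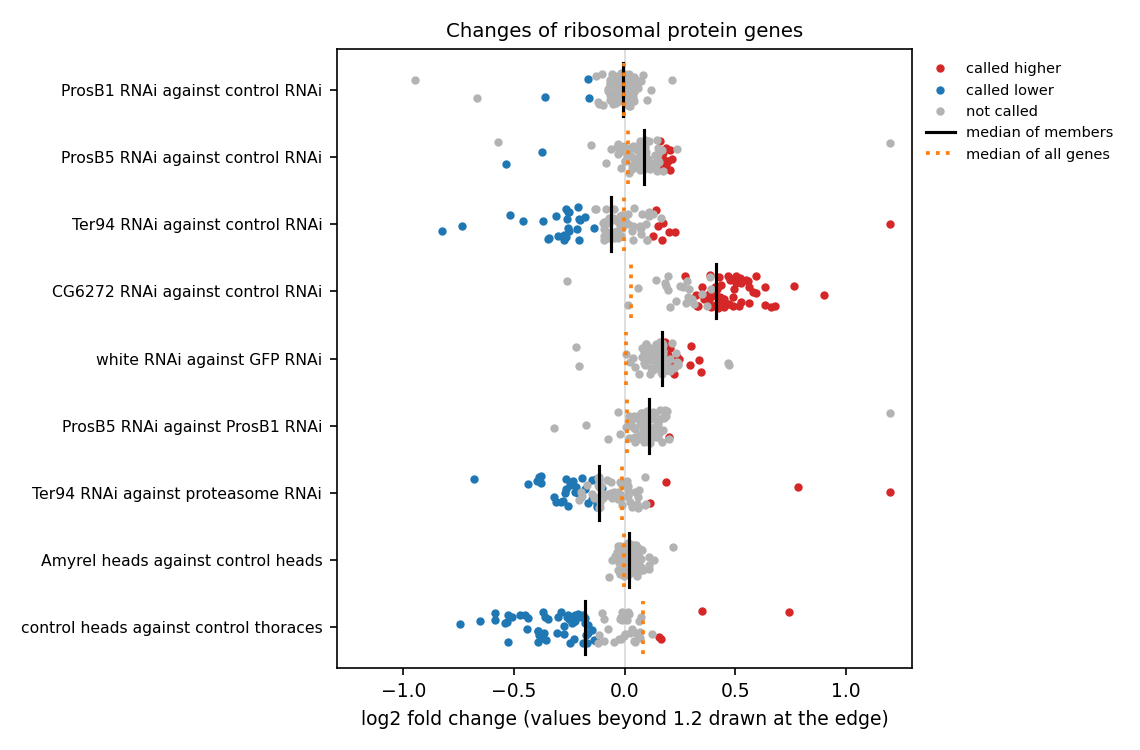
Log2 fold change of every member tested (points) in each comparison, with called members coloured and the median of the members marked; 4 values beyond the axis limit are drawn at its edge. The CG6272 RNAi points lie almost all above 0, with a median of 0.41, while those of Amyrel heads lie close to 0. The Ter94 RNAi points, with a median of -0.06 under TMM scaling, have a median of 0.18 when scaled by total reads.

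The control groups differed from each other in these genes, and they enter each comparison above and below. White RNAi exceeded GFP RNAi in 19 of 86 members, and 0 were lower, against 7.09% and 5.41% of all genes. The median member was 0.17 higher and the median gene 0.01 higher. For 59 members the 3 white RNAi libraries all lay above the 3 GFP RNAi libraries, against 17.6% of all genes. RpS26 measured 856, 862 and 853 CPM in white RNAi and 695, 715 and 613 CPM in GFP RNAi, a log2 difference of 0.35 (SE 0.0749, adjusted p = 0.0097, edgeR). RpS12 measured 547, 542 and 495 CPM against 434, 441 and 382 CPM, a difference of 0.34 (SE 0.0698, adjusted p = 0.00792). Both genes had no overlap between the control groups. RpS29 rose by 0.30 (adjusted p = 0.0244). RpL22 was 0.47 higher with no call (adjusted p = 0.0512), and only RpL24-like, at -0.22 (adjusted p = 0.207), and RpS15Ab, at -0.21 (adjusted p = 0.137), had negative values among the members. Haemocyte genes differed too, with 3 of 5 higher and sums of 461 to 480 CPM in white RNAi and 388 to 407 CPM in GFP RNAi, while 2 of 6 fat body genes were higher and 2 of 10 muscle genes lower; their part was not tested. GFP RNAi replicate 3, where ninaE was high, had the lowest share of ribosomal protein reads, and without it 5 members were called higher and 1 lower, with a median of 0.11. Without the libraries high in ninaE 1 member was called higher, with a median of 0.10, and without those high in accessory gland genes 0. Leaving out other libraries gave 4 called without white RNAi replicate 2, 6 without white RNAi replicate 1, 9 without white RNAi replicate 3 and 11 without GFP RNAi replicate 1.

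Knockdown of the proteasome subunit ProsB1 left the called set small. Of 86 members 0 rose and 3 fell, against 11.5% and 9.15% of all genes, and the median member stood at -0.01. RpS15Ab, the minor paralogue of the small subunit protein RpS15Aa, measured 43.5, 49.5 and 44.4 CPM against 53.9 to 64.0 CPM in the controls. The groups did not overlap, and RpS15Ab fell by 0.36 (SE 0.075, adjusted p = 0.00417, edgeR). RpS3A fell by 0.16 (SE 0.0472, adjusted p = 0.027) with an overlap, since its 1459, 1521 and 1537 CPM reached the lowest control at 1517 CPM. RpL7-like fell by 0.16 (SE 0.0517, adjusted p = 0.0456). Photoreceptor genes were lower in 8 of 14, with sums of 110 to 144 CPM. The controls high in ninaE summed to 571, 994 and 1084 CPM, and the other controls to 123 to 204 CPM. Gut genes were higher in 4 of 9, while their sums of 6018, 5205 and 7456 CPM lay on both sides of the control range of 6036 to 7084 CPM. Haemocyte genes were higher in 3 of 5. The part of these cells in the result was not tested. The count called lower was 1 without GFP RNAi replicate 2, white RNAi replicate 3, ProsB1 RNAi replicate 2 or replicate 3, and without GFP RNAi replicate 2 a member was called higher. Without the libraries high in accessory gland genes it was 0, and RpS15Ab then had an adjusted p of 0.0506.

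In ProsB5 RNAi thoraces 17 members rose and 2 fell, against 17.2% and 13.2% of all genes, so the counts of members were not far from, or below, those of all genes. The median member was 0.09 higher, against 0.01 for all genes. The risers comprised 9 RpL and 8 RpS genes, with changes between 0.14 and 0.21. RpL18 measured 677, 629.7 and 631 CPM against 502 to 615 CPM in the controls. Its groups did not overlap, and it rose by 0.21 (SE 0.0587, adjusted p = 0.0151, edgeR). RpL13 rose by 0.21 (adjusted p = 0.0148). RpS6 rose by 0.17 (adjusted p = 0.0173), and RpS3 rose by 0.17 (adjusted p = 0.0321). The stalk genes, the ubiquitin fusions, RpS12, RpL5 and RpL11 were not called.

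The members that fell in ProsB5 RNAi were both minor relatives of abundant genes. RpS15Ab measured 40.1, 41.4 and 40.1 CPM, all below the 6 controls, and fell by 0.54 (SE 0.0757, adjusted p = 0.000203, edgeR). RpL24-like, related to a yeast assembly factor, measured 137, 148 and 152 CPM against 161 to 232 CPM and fell by 0.37 (SE 0.0941, adjusted p = 0.00928). Markers of other cells differed between ProsB5 RNAi and the controls. Haemocyte genes were higher in 5 of 5, with sums of 611 to 630.5 CPM against 388 to 480 CPM, and fat body genes in 4 of 6, with 11630.0 to 14603 CPM against 7397 to 9338 CPM. Muscle genes were lower in 5 of 10, with 17143 to 21429 CPM against 21099 to 28361 CPM. Photoreceptor genes were lower in 13 of 14, with sums of 105 to 123 CPM. The controls high in ninaE summed to 571, 994 and 1084 CPM, and the other controls to 123 to 204 CPM. Gut genes were higher in 4 of 9, while their sums of 9176, 5178 and 4826 CPM lay on both sides of the control range of 6036 to 7084 CPM. The part of these cells in the result was not tested. The count of risers depended on the libraries. It was 38 against GFP RNAi alone, with a median of 0.18, and 0 against white RNAi alone, with a median of 0.01, 5 without the control libraries high in ninaE and 1 without those high in accessory gland genes. It was 2 without ProsB5 RNAi replicate 1, 8 without ProsB5 RNAi replicate 3, 9 without white RNAi replicate 3 and 10 without white RNAi replicate 2.

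Tested directly, ProsB5 RNAi exceeded ProsB1 RNAi in 1 member and was lower in 0, against 3.33% and 2.21% of all genes. That member was RpL3, which lies at the peptidyl transferase centre. RpL3 measured 1866, 1777 and 1872 CPM in ProsB5 RNAi and 1706, 1572 and 1516 CPM in ProsB1 RNAi, a difference of 0.20 (SE 0.0515, adjusted p = 0.0396, edgeR). For 40 members every ProsB5 library lay above every ProsB1 library, against 12.2% of all genes, and the median member was 0.11 higher. RpL24-like was at -0.32 (adjusted p = 0.114) and RpS10a at 2.42 (adjusted p = 0.0763). With DESeq2 7 members were called higher and 1 lower. Leaving out ProsB1 RNAi replicate 1 gave 2 called higher, and leaving out any of the other 5 libraries gave 0.

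In Ter94 RNAi thoraces members were called in both directions. Of 86 members 8 rose and 25 fell, which is 9.30% and 29.1%, against 28.5% and 28.9% of all genes. The share that fell was thus near that of all genes, and the share that rose was below it. RpS10a, a member only through its level in this group, is among the 8. The fallers comprised 14 RpL and 11 RpS genes, and the median member stood at -0.06 under TMM scaling, with 0.00 for all genes. Scaling by total reads alone shifted the median of all genes to 0.23 and that of the members to 0.18, and then 52 members were higher and 3 lower. Against GFP RNAi alone 15 were higher and 12 lower, with a median of 0.01, and against white RNAi alone 1 was higher and 37 were lower, with a median of -0.15. The split of calls and the sign of the median thus depended on the scaling and on the control group. RpL38, RpS15Ab and RpL39, which fell the furthest, stayed called under total reads, at -0.59, -0.50 and -0.28.

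RpL38, a small protein of the large subunit, measured 299, 237 and 233 CPM against 402 to 482 CPM in the controls, whose median was 461 CPM. The groups lay far apart, and RpL38 fell by 0.82 (SE 0.087, adjusted p = 5e-06, edgeR). RpS15Ab measured 41.2, 34.4 and 30.4 CPM against 53.9 to 64.0 CPM and fell by 0.73 (SE 0.0766, adjusted p = 5e-06). RpL39, which lines the exit tunnel for the growing chain, measured 429, 364 and 369.9 CPM against 470.2 to 593 CPM and fell by 0.52 (SE 0.0735, adjusted p = 6.4e-05). In each of these genes all 3 Ter94 libraries lay below the lowest control. RpL24-like fell by 0.46 (adjusted p = 0.00112), RpS14a by 0.35 (adjusted p = 8.2e-05) and RpS14b, a near-identical copy whose reads cannot be assigned with certainty, by 0.28 (adjusted p = 0.00041). Under total reads these 3 were at -0.22, -0.11 and -0.04, none of them called.

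The stalk protein RpLP2 fell by 0.30 (adjusted p = 0.0107, edgeR), with 660.0, 518 and 536 CPM against 577 to 765 CPM and an overlap in replicate 1; under total reads it was at -0.06 and not called. RpLP0 and RpLP1, RpS27A and RpL40, RpS3, RpS12, RpL5 and RpL11 were not called, and their signs were opposite when scaled by total reads. Among the risers, RpL4 measured 1314, 1219 and 1208 CPM against 956 to 1199 CPM and rose by 0.20 (SE 0.0601, adjusted p = 0.0122). RpS27 rose by 0.23 (SE 0.0731, adjusted p = 0.018), RpL7 by 0.17 (adjusted p = 0.00521) and RpS6 by 0.13 (adjusted p = 0.0386). Without Ter94 RNAi replicate 1 the members called were 4 higher and 37 lower, with a median of -0.11, and without replicate 2 the count called lower was 17, with a median of -0.02. Without the control libraries high in ninaE 5 were called higher, and without those high in accessory gland genes 4 were higher and 14 lower.

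RpS10a is described without a test, since its level in Ter94 RNAi made it a member. It measured 5.36, 4.09 and 3.82 CPM there, from 125 to 173 reads a library, against 0.0343 to 0.469 CPM, from 1 to 15 reads, in the 6 controls. No Ter94 library overlapped a control, and the fitted log2 difference was 4.37. It was 3.90 higher without the control libraries high in ninaE and 5.29 higher without those high in accessory gland genes. ProsB5 RNAi thoraces measured 0.378, 1.04 and 0.351 CPM and ProsB1 RNAi thoraces 0.123, 0.0857 and 0.112 CPM. Even in Ter94 RNAi it supplied only 0.750% of the reads of the RpS10 pair, and its paralogue RpS10b measured 633, 548 and 565 CPM against 495 to 701 CPM in the controls.

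The germline marker list was higher in the same libraries as RpS10a. Its 6 genes summed to 20.0 to 24.1 CPM in Ter94 RNAi and 1.44 to 4.97 CPM in the controls, and 4 of the 5 genes tested were called higher. Most of that sum was vas, a germline helicase, at 15.6 to 17.2 CPM against 0.309 to 1.41 CPM. The level of bam, a marker of dividing germ cells, was 0.620, 0.114 and 0.0612 CPM against 0 to 0.127 CPM. Only the first of these bam values lay above the controls. Testis genes summed to 4.06 to 4.43 CPM in Ter94 RNAi and 4.14 to 15.4 CPM in the controls. The part of these cells in the RpS10a level was not tested. The other germline-type copy, RpS5b, measured 1.27, 0.909 and 0.795 CPM in Ter94 RNAi, within the control range of 0.584 to 1.27 CPM. Other marker lists differed as well. Gut genes had 7 of 9 lower and 2 higher, with sums of 92.7 CPM in Ter94 RNAi replicate 1, 1448 and 1523 CPM in the other Ter94 libraries and 6036 to 7084 CPM in the controls. Neuron genes were higher in 4 of 5, with 780.2 to 1035 CPM against 634 to 827 CPM. Haemocyte genes were lower in 4 of 5, with 279 to 318 CPM against 388 to 480 CPM. Photoreceptor genes were lower in 9 of 14, with sums of 103 to 156 CPM. The controls high in ninaE summed to 571, 994 and 1084 CPM, and the other controls to 123 to 204 CPM. The part of these cells in the members' changes was not tested.

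**Figure D4:**
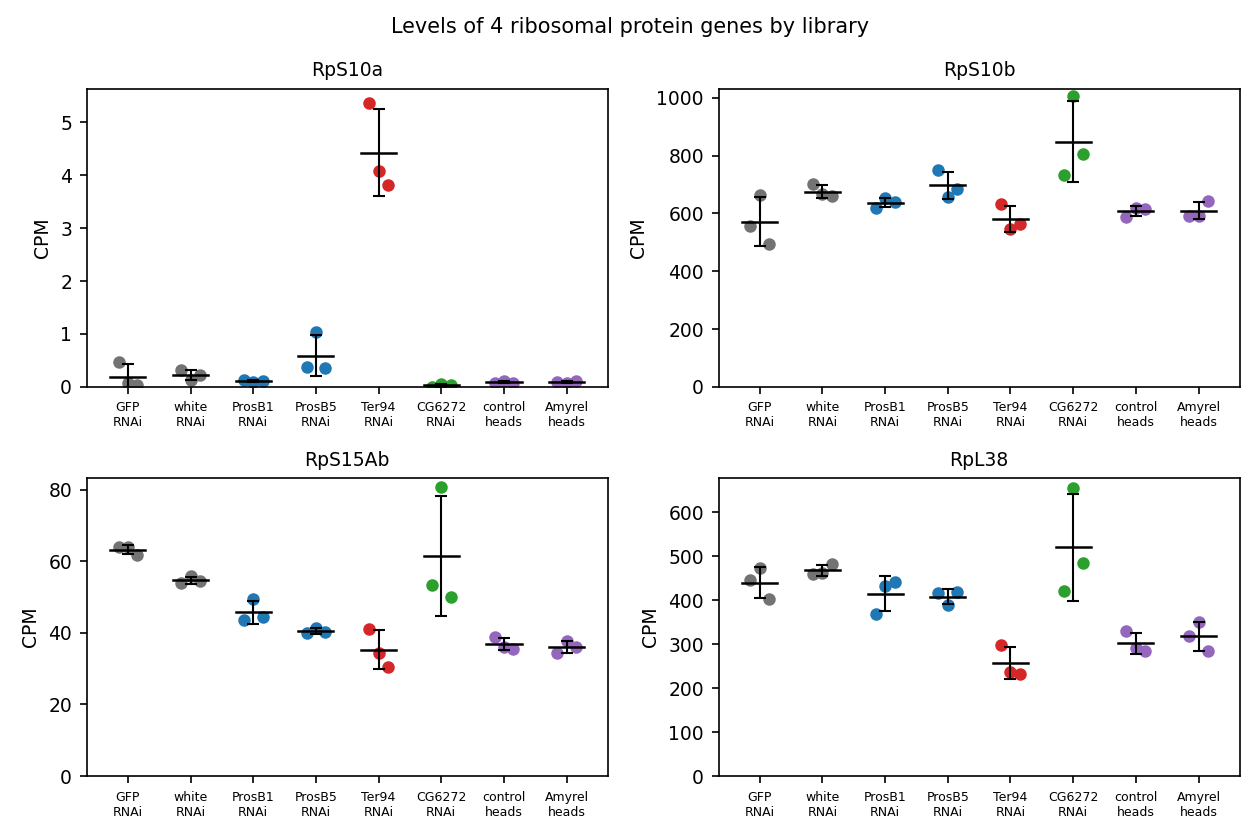
CPM of RpS10a, RpS10b, RpS15Ab and RpL38 in each library, by group (linear axes from 0). RpS10a is at 3.82 to 5.36 CPM in Ter94 RNAi and at most 1.04 CPM elsewhere, and RpL38 is at 233 to 299 CPM in Ter94 RNAi and at least 369 CPM in the other thoraces.

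The Ter94 changes ran with the length of the coding sequence. Across 85 members the log2 fold change and the length had a Spearman rho of 0.54, a description over genes that share the same 9 libraries. Of the 29 shortest members, up to 429 bases, 17 fell and 1 rose, with a median of -0.21. Of the 28 longest, from 573 bases, 3 fell and 6 rose, with a median of 0.03. Genes outside the ribosome differed with length as well. The 1200 other genes under 500 bases had a median of -0.26, 40.8% of them were called lower, and over all 10702 other genes rho was 0.13. In each library the short members were lower relative to the long ones than in controls, with log2 ratios of -0.62, -0.73 and -0.73 in Ter94 RNAi and -0.53 to -0.46 in the controls. A weaker trend was present in the proteasome knockdowns, where the members had a rho of 0.25 in ProsB1 RNAi and 0.33 in ProsB5 RNAi. Of the ProsB5 risers, 10 were among the 28 longest members and 1 among the 29 shortest. The log2 ratios were -0.54, -0.57 and -0.55 in ProsB5 RNAi, also below the controls, and -0.54, -0.50 and -0.50 in ProsB1 RNAi. In CG6272 RNAi the members had a rho of 0.09 over 84 genes, while other genes had a rho of -0.39 and those under 500 bases a median of 0.21. The part of length in the members' calls was not tested.

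**Figure D5:**
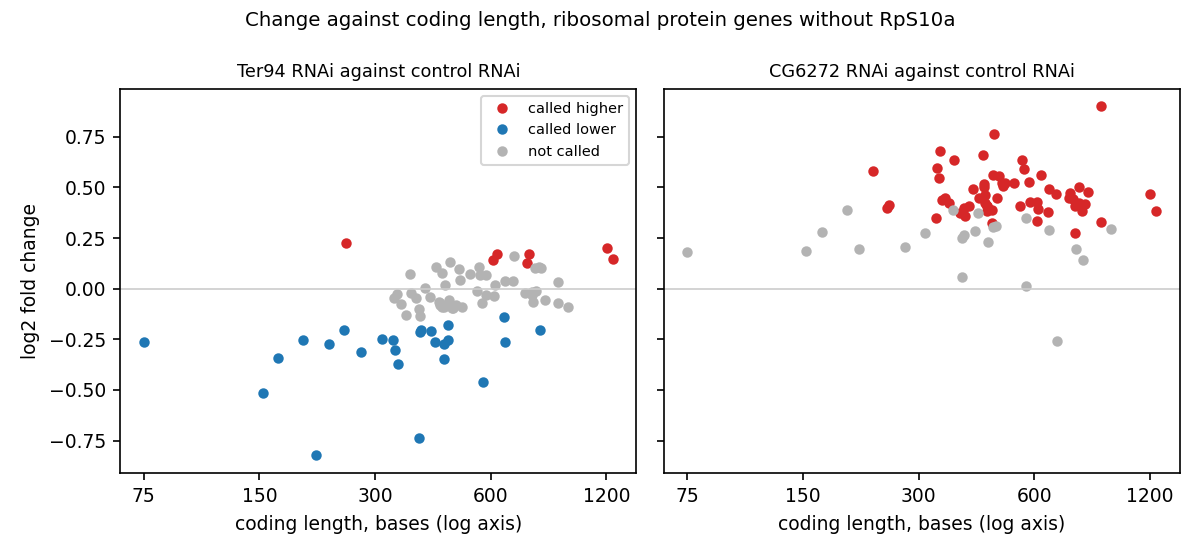
Log2 fold change of each member against the length of its coding sequence in bases (log axis), for Ter94 RNAi and CG6272 RNAi against the control RNAi libraries; RpS10a is not drawn. Short genes lie lower in Ter94 RNAi (rho 0.54, n = 85), while CG6272 RNAi has a rho of 0.09 (n = 84).

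Ter94 RNAi was compared directly with the mean of both proteasome knockdowns, which separates it from genotypes that act on the same degradation route. Of 86 members 4 were higher and 32 lower, against 26.0% and 30.0% of all genes. The median member was at -0.11 under TMM scaling and at 0.06 under scaling by total reads, where 25 were higher and 7 lower and the median gene shifted to 0.16. RpS10a and RpS5b, at 4.11 and 0.78, are among the 4. RpS10a is a member through its Ter94 level alone and RpS5b through its Ter94 and head levels, so these differences are a description. RpL38 was lower by -0.68 (SE 0.0864, adjusted p = 2.6e-05, edgeR), with 299, 237 and 233 CPM against 369 to 443 CPM in the 6 proteasome libraries. RpL39 was at -0.44, RpS14a at -0.40, RpS29 at -0.39 and RpL36 at -0.38, all called. RpS15Ab was called at -0.29, and under total reads it was at -0.11 without a call. Without libraries high in accessory gland genes 2 were called higher and 19 lower, and the count called lower was 18 without Ter94 RNAi replicate 2 or replicate 3, with a median of -0.07 without replicate 2 and -0.17 without replicate 1. All 9 gut genes and 4 of 5 haemocyte genes were lower than in the proteasome groups, and 5 of 5 neuron genes were higher; their part was not tested. The count called higher was 1 without Ter94 RNAi replicate 1 or ProsB1 RNAi replicate 3, and 2 without ProsB1 RNAi replicate 2, ProsB5 RNAi replicate 2 or ProsB5 RNAi replicate 3.

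The head libraries compare flies with and without overexpression of an enzyme in muscle, and no ribosomal protein gene was called there. Heads hold muscle too, with 1390 to 1602 CPM of Mhc. Amyrel itself measured 6.85 to 7.26 CPM in Amyrel heads and 0.0609 to 0.121 CPM in control heads. Effects within the head and effects from other muscle therefore cannot be told apart. Of 85 members tested 0 were higher and 0 lower in Amyrel heads, against 0.754% and 0.716% of all genes. At an unadjusted p under 0.05 the count was also 0 with edgeR, and with DESeq2 0 were called. The member log2 fold changes ran from -0.07 to 0.22, with a median of 0.02. RpLP0-like had the lowest adjusted p, at 0.22 (adjusted p = 0.419), with 22.7, 18.01 and 17.0 CPM in Amyrel heads and 17.2, 16.4 and 15.9 CPM in control heads. RpL38 measured 319, 351 and 285 CPM against 329, 292 and 286 CPM, and RpS15Ab 34.4, 37.6 and 36.1 CPM against 38.8, 36.2 and 35.6 CPM. Both overlapped between the groups. A p above the threshold does not show that the heads were alike.

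Control heads were set against the 6 control thoraces to describe the tissues. Tissue, genotype and depth cannot be told apart here. The head controls carried no RNAi transgene, and they held 48793128 to 75689088 reads in genes, against 30965721 to 32882540 in the thoraces. Of 85 members 4 were higher and 51 lower in heads, against 44.7% and 35.8% of all genes. The median member was at -0.18 and the median gene at 0.08. Under scaling by total reads 20 were higher and 29 lower, with the median gene shifted to 0.22 and the median member at -0.05. RpS15Ab was lower by -0.74 (SE 0.0356, edgeR), with 35.5, 34.8 and 33.7 CPM in heads and 52.5 to 62.9 CPM in thoraces, all scaled together. RpL38 was lower by -0.66 (adjusted p = 6e-06), with 301, 281 and 270.1 CPM against 402 to 475 CPM. Neither gene overlapped between the tissues. RpS3A and RpL24-like were at -0.58 each, RpS14b at -0.54 and the ubiquitin fusion RpS27A at -0.51, all called. The other ubiquitin fusion, RpL40, was at -0.01, and RpS6 at 0.02, and neither was called. RpS5b, which passed the membership threshold in heads and in Ter94 RNAi, was at 1.48, 1.57 and 1.33 CPM in heads. In thoraces it was at 0.583 to 1.24 CPM, a description that is also 1 of the 4 counts. RpL22 was higher by 0.35 (adjusted p = 0.0343). The count called higher was 1 without GFP RNAi replicate 1, control head replicate 2 or control head replicate 3. Without the control libraries high in ninaE 3 were called higher and 52 lower.

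Within the 13 pairs of paralogues, some minor copies held a similar share in every group and others did not. RpS14b supplied 28.1% to 30.7% of its pair with RpS14a in all 24 libraries, and RpL34a 20.2% to 22.2% of its pair. Since RpS14a and RpS14b are near-identical, their reads cannot be assigned with certainty, and the steady share of RpS14b may come from that assignment. RpS15Ab supplied 8.71% of its pair in GFP RNAi, 6.83% in white RNAi, 6.24% in ProsB1 RNAi, 5.13% in ProsB5 RNAi, 5.09% in Ter94 RNAi and 6.77% in CG6272 RNAi. Its share differed between the control groups, and the means of all other thorax groups lay below both. Libraries of ProsB1 RNAi, up to 6.72%, and CG6272 RNAi, up to 7.76%, overlapped those of white RNAi, from 6.69%. Control heads had 6.01% and Amyrel heads 5.87%. Its partner RpS15Aa measured 628 to 761 CPM in the controls, 734 to 765 CPM in ProsB5 RNAi and 624 to 724 CPM in Ter94 RNAi, and was not called in either comparison. RpL24-like supplied 24.6% and 21.2% of the reads of RpL24 and RpL24-like in GFP and white RNAi, 23.8% in ProsB1 RNAi, 18.995% in ProsB5 RNAi, 20.6% in Ter94 RNAi and 18.7% in CG6272 RNAi. RpL24-like overlaps Dtd, and 25 of the members overlap an antisense gene; since the strand setting of the counting is not given in the sources used here, such reads may be shared.

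Other genes of translation gave a frame for these values. The small subunit proteins named outside the RpS series, sta and Rack1, rose with the members in CG6272 RNAi, by 0.52 (adjusted p = 0.0111, edgeR) and 0.34 (adjusted p = 0.043). Of 71 mitochondrial ribosomal protein genes tested, 40 rose and 0 fell in CG6272 RNAi, with a median of 0.45, where 14.5% of all genes rose and 8.80% fell. In Ter94 RNAi 4 of these rose and 41 fell, with a median of -0.26, where 28.5% of all genes rose and 28.9% fell. Against the proteasome knockdowns 1 was higher and 45 lower, with 26.0% and 30.0% of all genes. Of 9 elongation factors 2 rose and 0 fell in CG6272 RNAi, of 17 initiation factors 1 rose and 1 fell, and of 18 biogenesis genes 2 rose and 1 fell, counts that are not far from those shares of all genes. Ef1gamma, of the elongation complex, rose by 0.41 (adjusted p = 0.00858), and CG8801, of the biogenesis list, by 0.67 (adjusted p = 0.000716). The RNA polymerase I list had 0 of 4 higher and 1 lower in CG6272 RNAi, namely RpI1 at -0.28.

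In Ter94 RNAi 7 of 17 initiation factors rose and 3 fell, beside the 28.5% and 28.9% of all genes. eIF-2alpha, the subunit whose phosphorylation lowers initiation, rose by 0.97 (adjusted p = 1.32e-07, edgeR), and eIF6, which keeps the subunits apart, rose by 0.83. Of 18 biogenesis genes 6 rose and 4 fell, near those shares, CG8801 among the former at 0.71 (adjusted p = 7.42e-08). Xrp1, the partner of the CG6272 protein, was at -0.26 in CG6272 RNAi without a call (adjusted p = 0.092). It rose by 0.17 in ProsB5 RNAi (adjusted p = 0.032) and by 0.21 in Ter94 RNAi (adjusted p = 0.006), and was at 0.09 in ProsB1 RNAi (adjusted p = 0.280). Of 12 growth regulators 0 rose and 3 fell in CG6272 RNAi. One of them, dm, the Drosophila Myc, fell by 1.15 in CG6272 RNAi (adjusted p = 0.036).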

How the data were processed

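Thoraces and heads of Drosophila were sequenced as stranded mRNA libraries, per the labels' protocols. The deposited values are whole-number counts of reads per gene, 1 table per library, made by the authors; the submitters' processing notes name STAR, an aligner, and the build BDGP5. Neither the counting tool nor its strand setting is known here. Summary rows that name no gene held 19.4% to 31.2% of each table and were left out of library sizes and tests. Per the labels the replicates are biological; nothing says how many animals each holds.

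Counts were tested with edgeR 4.0.16 (R 4.3.3), using glmQLFit and glmQLFTest, two-sided, after filterByExpr (minimum count 10, minimum total 15). TMM scaling was computed over all 18 thorax or 6 head libraries, or over the 9 libraries of the head-thorax comparison. p-values were adjusted by Benjamini-Hochberg over all genes tested, with calls at adjusted p under 0.05. ProsB1, ProsB5, Ter94 and both control groups shared a fit of 15 libraries, and the CG6272 fit held 9. Knockdowns were set against the mean of the control group means. Levels are TMM-scaled CPM, while the membership rule and the shares of reads used unscaled CPM. A level per kb used the shortest annotated transcript of BDGP6 that holds the longest coding sequence; this reference gave lengths and overlaps only. The depths of 28870166 to 79158181 reads in genes set the precision, and intervals and floors (3 counts) cover counting error only.

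The members and gene lists were chosen with earlier results of these data known. Named were the stalk genes, the ubiquitin fusions, RpS6, RpS3, RpS12, RpL5, RpL11, both genes of each paralogue pair, and per comparison the 3 largest called rises and falls at 5 CPM or more, the member with the lowest p and any member at 0. Of the other lists up to 2 called genes with the lowest p were named, and Xrp1. Further genes were named after their values were seen. Of the genes this rule names, 1 is not reported here. Alternatives were DESeq2 1.42.0, other scalings, no filter, other sets of libraries and a replicate block. The script was tested on simulated data.

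Replicate numbers were checked as pairs from the deviations of log2(CPM + 0.5) from group means. In heads the correlations of same-numbered libraries were 0.157, 0.150 and 0.257, all over the limit of 0.1 set for pairs. Libraries with different numbers were not correlated, so this check cannot show that heads were paired. The head values above are from the unpaired fit, and the paired fit called 0 members as well. In thoraces ProsB5 and GFP RNAi libraries gave 0.687, 0.423 and 0.499, but ProsB5 and white RNAi libraries 0.188, -0.451 and 0.593, so thoraces were not taken as paired.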

Additional observations from a re-analysis of the deposited data

Results flagged for a closer look

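In the 6 control RNAi thoraces, GFP RNAi replicate 3 lay far below the other 5 libraries in 9 of 87 values examined, with a gap to its nearest neighbour above Dixon's critical ratio for 6 samples. The genes were RpS18 at 742.3 CPM, RpS28b at 557.7, RpS23 at 689.8, RpS9 at 544, RpL27A at 768.6, RpL39 at 470.2, RpL36 at 651.2, RpS30 at 614.2 and RpL28 at 463.4 CPM. Chance gives such a gap in about 5% of groups, and these genes share 1 library. ninaE stood at 348 CPM in that library, and its part in these values was not tested.

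Direct tests between knockdowns also differed. ProsB5 RNAi exceeded ProsB1 RNAi in 1 member, RpL3, by 0.20 on the log2 scale. Set against both proteasome knockdowns, Ter94 RNAi had 4 members higher and 32 lower, including RpL38 at -0.68. RpS10a, at 4.11, and RpS5b, at 0.78, are among those higher. Both passed the membership threshold in Ter94 RNAi, RpS10a only there and RpS5b also in heads, so their differences are a description only. RpS5b rested on low levels, with 0.795 to 1.27 CPM in Ter94 RNAi and 0.378 to 0.701 CPM in the proteasome libraries.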

How the results depend on the processing

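Counts of called members depended on the libraries, the scaling and the tool. They are given as higher and lower; the causes were not tested beyond the smaller sets of libraries that some alternatives use. With total reads in place of TMM, ProsB1 RNAi had 1 lower, ProsB5 RNAi 37 higher, Ter94 RNAi 52 and 3, white against GFP RNAi 10 higher, ProsB5 against ProsB1 RNAi 0 higher, Ter94 RNAi against the proteasome groups 25 and 7, and heads against thoraces 20 and 29. With GFP RNAi as the only control, ProsB1 RNAi had 4 and 1, ProsB5 RNAi 38 higher and Ter94 RNAi 15 and 12; with white RNAi as the only control, ProsB5 RNAi had 0 and 1, Ter94 RNAi 1 and 37, and CG6272 RNAi 11 higher. With DESeq2, white against GFP RNAi had 32 higher, ProsB5 against ProsB1 RNAi 7 and 1, and heads against thoraces 1 higher, as with relative log expression scaling. With only the compared groups fitted, ProsB5 RNAi had 11 higher, white against GFP RNAi 6 and 1, and ProsB5 against ProsB1 RNAi 0 and 1; with all 18 thoraces fitted, CG6272 RNAi had 1 lower. Without a filter, white against GFP RNAi had 11 higher, Ter94 RNAi against the proteasome groups 2 and ProsB5 against ProsB1 RNAi 0; with TMM within the fit, white against GFP RNAi had 11 higher.

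Alternatives added after seeing the data left out libraries high in other tissues' genes. Without those high in ninaE, ProsB1 RNAi had 1 higher, ProsB5 RNAi 5, Ter94 RNAi 5, CG6272 RNAi 1 and white against GFP RNAi 1. Without those high in accessory gland genes, ProsB1 RNAi had 0 lower, ProsB5 RNAi 1 and 1, Ter94 RNAi 4 and 14, CG6272 RNAi 0 higher, white against GFP RNAi 0 higher, and Ter94 RNAi against the proteasome groups 2 and 19.

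Leaving out each replicate in turn gave 0 to 1 higher and 1 to 3 lower in ProsB1 RNAi, 2 to 19 higher in ProsB5 RNAi, 4 to 8 higher and 17 to 37 lower in Ter94 RNAi, 22 to 71 higher and 0 to 1 lower in CG6272 RNAi, 4 to 20 higher and 0 to 1 lower in white against GFP RNAi, 0 to 2 higher in ProsB5 against ProsB1 RNAi, 1 to 4 higher and 18 to 47 lower in Ter94 RNAi against the proteasome groups, and 1 to 4 higher and 46 to 55 lower in heads.

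With the replicate block, ProsB5 against ProsB1 RNAi had 5 higher; the other paired counts were 0 and 2 for ProsB1 RNAi, 24 and 2 for ProsB5 RNAi, 11 and 27 for Ter94 RNAi, 51 and 0 for CG6272 RNAi, 26 and 0 for white against GFP RNAi, 4 and 36 for Ter94 RNAi against the proteasome groups and 0 and 0 for Amyrel heads. Heads and thoraces share no animals and were not fitted in pairs.

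Of 4835 values of named genes under an alternative, 4255 kept their call or lack of one, 450 lost the call and 103 gained it. A further 27 changed sign with a call in the main fit or in the alternative. Changes of sign without a call in either fit were not counted among these, and the sign changes below are those 27. Under total reads the sign changed in Ter94 RNAi for RpLP0 (0.15), RpLP1 (0.19), RpS27A (0.16), RpL40 (0.19), RpS3 (0.22), RpS12 (0.20), RpL5 (0.17), RpL11 (0.23), RpS15Aa (0.14), RpS19a (0.19), RpL10Ab (0.10), RpL37a (0.20), RpL34a (0.16), RpL7-like (0.17) and RpLP0-like (0.22). Against the proteasome groups it changed for RpLP0 (0.0475), RpLP1 (0.15), RpS27A (0.0265), RpS12 (0.00914), RpL5 (0.0731), RpS15Aa (0.0455), RpL37a (0.0554) and RpLP0-like (0.15), and between heads and thoraces for RpLP1 (0.00647) and RpL40 (0.13). RpS6 was at -0.0829 there with DESeq2, and RpS15Ab was at -0.19 in CG6272 RNAi without CG6272 replicate 2.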
